A study of Mus musculus with 35 samples.

Results

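Mitosis genes encode the proteins that carry a cell from the end of DNA synthesis through chromosome segregation and division. This group holds 44 of them, chosen by name: the mouse genes of 44 listed symbols, each with a value of at least 10 in 3 or more libraries. All 44 were among the 24454 genes in the deposited table, and all 44 passed that filter, as did 12682 genes in all.

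The libraries came from C57BL/6 mice transplanted with cells that carry 1 of 3 leukemia fusion genes under regulatable expression (NUP98-DDX10, NUP98-JARID1A or NUP98-NSD1). GFP/CD45.2+ bone marrow cells were sorted and their polyadenylated RNA was sequenced. Each fusion had 4 libraries of untreated mice, 3 of mice given doxycycline at 4 mg/ml for 3 days and 3 of mice given it for 5 days. The untreated group of a fusion pooled 1 library titled day 3 and 3 titled day 5. The remaining 3 libraries are controls by title and untreated. The genotype field of each names NUP98/NSD1 and NUP98/JARID1A together with a partner that differs by library (NUP98/DDX40, NUP98/DDX41 or NUP98/DDX42), so what the control cells carry is not known. In all, 33 libraries formed 10 groups. The mouse age, the promoter that drives the fusion and which animal gave each library are not given in the sources used here, so the p-values measure the spread between these samples, which may be technical. The bone marrow was bulk RNA, in which fewer dividing cells and less RNA per dividing cell cannot be told apart.

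Entry into mitosis is driven by the kinase CDK1 bound to cyclins A and B, which the CDC25 phosphatases activate and which the transcription factor FOXM1 helps to produce. The spindle checkpoint then holds the cell until every kinetochore, the protein complex at each centromere, is attached to spindle microtubules. Once it is satisfied, CDC20 turns on the anaphase promoting complex, which marks securin and cyclin B for destruction. The chromosomal passenger complex, the central spindle and the contractile ring finish segregation and cytokinesis. Most of these genes are transcribed only late in the cell cycle, through promoters that hold a cell cycle genes homology region (CHR) and CCAAT boxes, the binding letters of the DREAM and MuvB complexes and of NF-Y. Their summed level in a bulk sample is therefore commonly read as a measure of how many cells are dividing.

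After 3 days of doxycycline, 23 of the 44 genes were past the test and higher than untreated in the mean of the 3 fusions, as were 8.67% of all features tested. In NUP98-NSD1 by itself 21 were higher, beside 4.55% of all features. By day 5, 7 genes were higher in NUP98-DDX10, beside 6.49% of all features. The 5 higher in NUP98-NSD1 and the 7 lower in NUP98-JARID1A were smaller shares than the 13.5% and 21.2% of all features. The day 3 rises were small, at most 0.47 on the log2 scale in the mean of the fusions.

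RefSeq promoters (GRCm38.p6, 250 bases before to 50 after a transcription start) were found for 36 of the 44 genes, with 39 starts. The letters TTTGAA or TTCGAA, the core of the CHR, were searched on both strands and occurred in 30 of the 39 promoters (76.9%). Among all 32851 promoters in the table the share was 19.2%, among those of the genes tested 14.3%, and among 45 promoters of DNA replication genes 15.6%. CCAAT on either strand occurred in 76.9% of the mitosis promoters, against 37.4% of all promoters, and at least 2 times in 51.3% against 11.7%. Both sets of letters together were in 69.2% of the mitosis promoters and 7.53% of all promoters. The E2F letters TTTGGCGC or GGCGGGAA were in 2.56% of the mitosis promoters, 26.7% of the DNA replication promoters and 2.68% of all. Overlapping matches were each counted. The 250 bases before the start are shown for 4 genes that passed the test at day 3 and hold both sets of letters there, to let the spacing of the letters be read. Capitals mark the CHR letters (TTTGAA, or TTCAAA where they lie on the other strand) and the CCAAT letters (CCAAT, or ATTGG on the other strand). The windows are chr10:69352913-69353162, minus strand, for Cdk1, chr9:70421555-70421804, minus strand, for Ccnb2, chr4:118437344-118437593, minus strand, for Cdc20, and chr2:164769679-164769928, plus strand, for Ube2c.
Cdk1: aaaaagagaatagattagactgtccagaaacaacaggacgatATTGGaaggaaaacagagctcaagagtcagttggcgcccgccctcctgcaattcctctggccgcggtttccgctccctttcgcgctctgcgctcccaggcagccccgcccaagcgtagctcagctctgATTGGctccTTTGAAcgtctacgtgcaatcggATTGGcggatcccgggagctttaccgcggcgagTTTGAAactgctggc
Ccnb2: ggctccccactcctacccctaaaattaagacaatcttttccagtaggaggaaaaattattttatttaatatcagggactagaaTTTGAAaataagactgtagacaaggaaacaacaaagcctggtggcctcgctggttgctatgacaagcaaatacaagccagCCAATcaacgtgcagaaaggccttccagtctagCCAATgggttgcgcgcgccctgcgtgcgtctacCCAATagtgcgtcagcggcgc
Cdc20: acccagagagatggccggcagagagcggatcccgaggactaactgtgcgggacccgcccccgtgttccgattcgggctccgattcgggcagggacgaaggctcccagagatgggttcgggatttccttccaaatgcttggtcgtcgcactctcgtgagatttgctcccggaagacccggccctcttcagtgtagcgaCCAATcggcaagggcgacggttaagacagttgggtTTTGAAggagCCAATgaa
Ube2c: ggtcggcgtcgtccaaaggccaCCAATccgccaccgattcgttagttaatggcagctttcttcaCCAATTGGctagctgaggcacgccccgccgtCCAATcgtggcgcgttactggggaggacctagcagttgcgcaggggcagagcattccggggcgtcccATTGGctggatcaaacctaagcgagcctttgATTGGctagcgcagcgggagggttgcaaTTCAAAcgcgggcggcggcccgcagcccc
Positions count back from the transcription start, with -1 the base before it. In Cdk1 the CHR letters run from -71 to -66 and from -15 to -10, and the CCAAT boxes begin at -208, -80 and -48. In Ccnb2 the CCAAT boxes begin at -87, -54 and -21, and the CHR letters shown lie farther out, from -167 to -162. Ccnb2 has 2 CHR matches in the searched window, and the other does not lie within the 250 bases shown. In Cdc20 the CHR letters run from -18 to -13, with CCAAT boxes at -53 and -8 on either side. Ube2c holds 6 CCAAT matches, of which those at -186 and -183 overlap, and its CHR letters run from -29 to -24. Within the 36 genes, the 27 with CHR letters had a median day 3 difference of 0.25 on the log2 scale and 12 past the test, and the 9 without had 0.30 and 5 past the test. These shares and medians are a description with no test.

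The libraries held 12043487 to 28903870 reads in genes, which put even the lowest member value, 152 normalized counts of Ndc80, well above the filter. Each fusion's own construct, the check of the labels, was far lower on doxycycline in its model. NUP98-DDX10 had 9003 to 14121 normalized counts untreated and 3.19 to 8.01 on doxycycline, NUP98-JARID1A 3042 to 3489 and then 60.2 to 100.3, and NUP98-NSD1 52599 to 58498 and then 40.3 to 58.1. The controls had 0 of the first and the last and 2.52 to 72.0 of NUP98-JARID1A. Of the markers of hematopoietic and myeloid cells, 10 of 10 were detected. The defining globin genes Hba-a1, Hba-a2 and Hbb-bt were listed at 0 in all 33 libraries, and Hbb-bs in 32.

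Over the 10 groups the mean level of a member varied by 1.43-fold (Incenp) to 3.36-fold (Plk1) between its lowest and highest group. NUP98-NSD1 at day 3 was the highest group for 23 of the 44 genes, the controls for 7 and NUP98-DDX10 at day 5 for 6. NUP98-JARID1A at day 5 was the lowest group for 22 genes and the controls for 14. To compare libraries, the log2 difference of each gene from its untreated mean over the fusions was taken, and its median over the 44 genes read per library. The 3 NUP98-NSD1 day 3 libraries lay between 0.40 and 0.64 and the 3 NUP98-DDX10 day 3 libraries between 0.25 and 0.38, all above their 4 untreated libraries (-0.08 to 0.12 and -0.11 to 0.15). The NUP98-JARID1A day 3 libraries lay between -0.15 and 0.19 and overlapped their untreated ones (-0.28 to 0.01). At day 5, NUP98-NSD1 had 0.12 to 0.24, NUP98-DDX10 0.17 to 0.34 and NUP98-JARID1A -0.50 to -0.05. The controls (-0.15 to 0.10) overlapped the untreated libraries of each fusion.

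**Figure D1:**
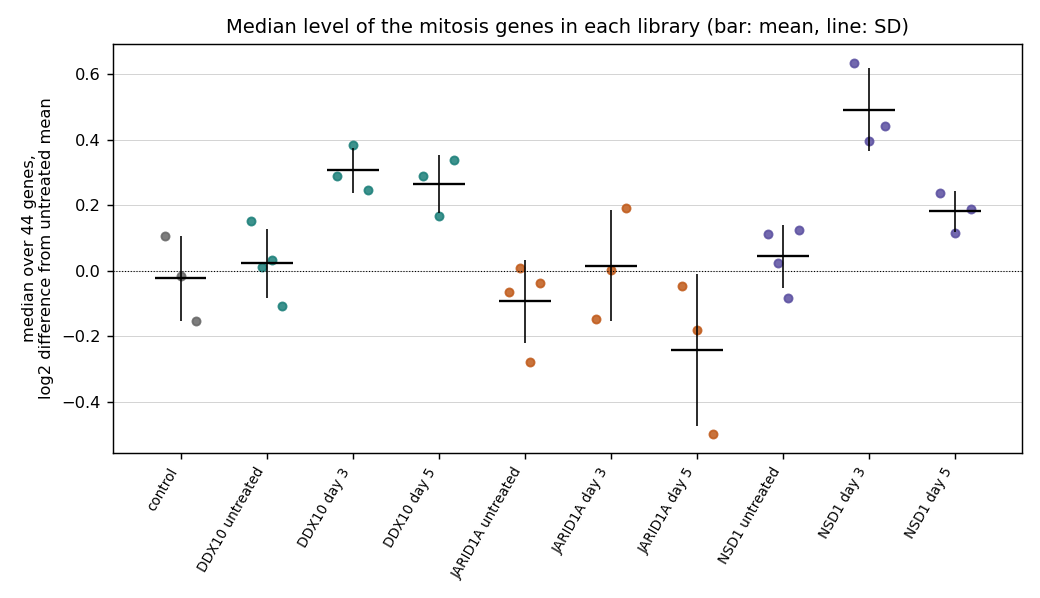
Median over the 44 mitosis genes of the log2 difference from the untreated mean, 1 point per library in 10 groups, with the group mean as a bar and the SD as a line. The NUP98-NSD1 day 3 libraries (0.40 to 0.64) are the highest, and NUP98-JARID1A day 5 has the lowest library (-0.50).

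Each gene was then tested with limma on log2(value + 1), and p-values were adjusted over all 12687 features, so that a change is on that scale. At day 3 the mean of the fusions had 23 of 44 genes higher, where 8.67% of all features were, and 0 lower, where 9.91% were. NUP98-NSD1 had 21 higher (4.55% of all features) and 0 lower (4.59%), with a median over the 44 genes of 0.45. NUP98-JARID1A had 6 higher (8.1%) and 1 lower (7.62%), with a median of 0.10. NUP98-DDX10 had 0 higher (0.134%) and 0 lower (0.962%), with a median of 0.25. In that model 43 of the 44 genes had a difference above 0, where 46.9% of all features did, and 19 were higher at an unadjusted p under 0.05 with limma; edgeR called 0 and DESeq2 4. The median over all features was -0.01, -0.02 and 0.01 in the 3 models. In the directions with no call in NUP98-NSD1 and in the mean, limma had 0 genes lower at an unadjusted p under 0.05, as edgeR and DESeq2 had at their adjusted threshold.

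Counted by library, 37 of the 44 genes in NUP98-NSD1 had all 3 day 3 libraries above all 4 untreated ones (19.7% of all features), 22 in NUP98-DDX10 (9.59%) and 12 in NUP98-JARID1A (13.4%). Of the 23 calls in the mean, 21 held in each of 21 fits that left out 1 library and 20 of those also under 11 other settings; Plk1 and Ccnb1 were the calls lost, Ccnb1 without NUP98-NSD1 day 3 replicate 1 or NUP98-JARID1A day 3 replicate 3 (adjusted p up to 0.0692). The NUP98-NSD1 count fell to 12 without its day 3 replicate 1 and 13 without its untreated library titled day 5 replicate 2. The NUP98-JARID1A count fell to 0 without its day 3 replicate 3, and to 3 without its day 3 replicate 1 or its untreated library titled day 3.

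**Figure D2:**
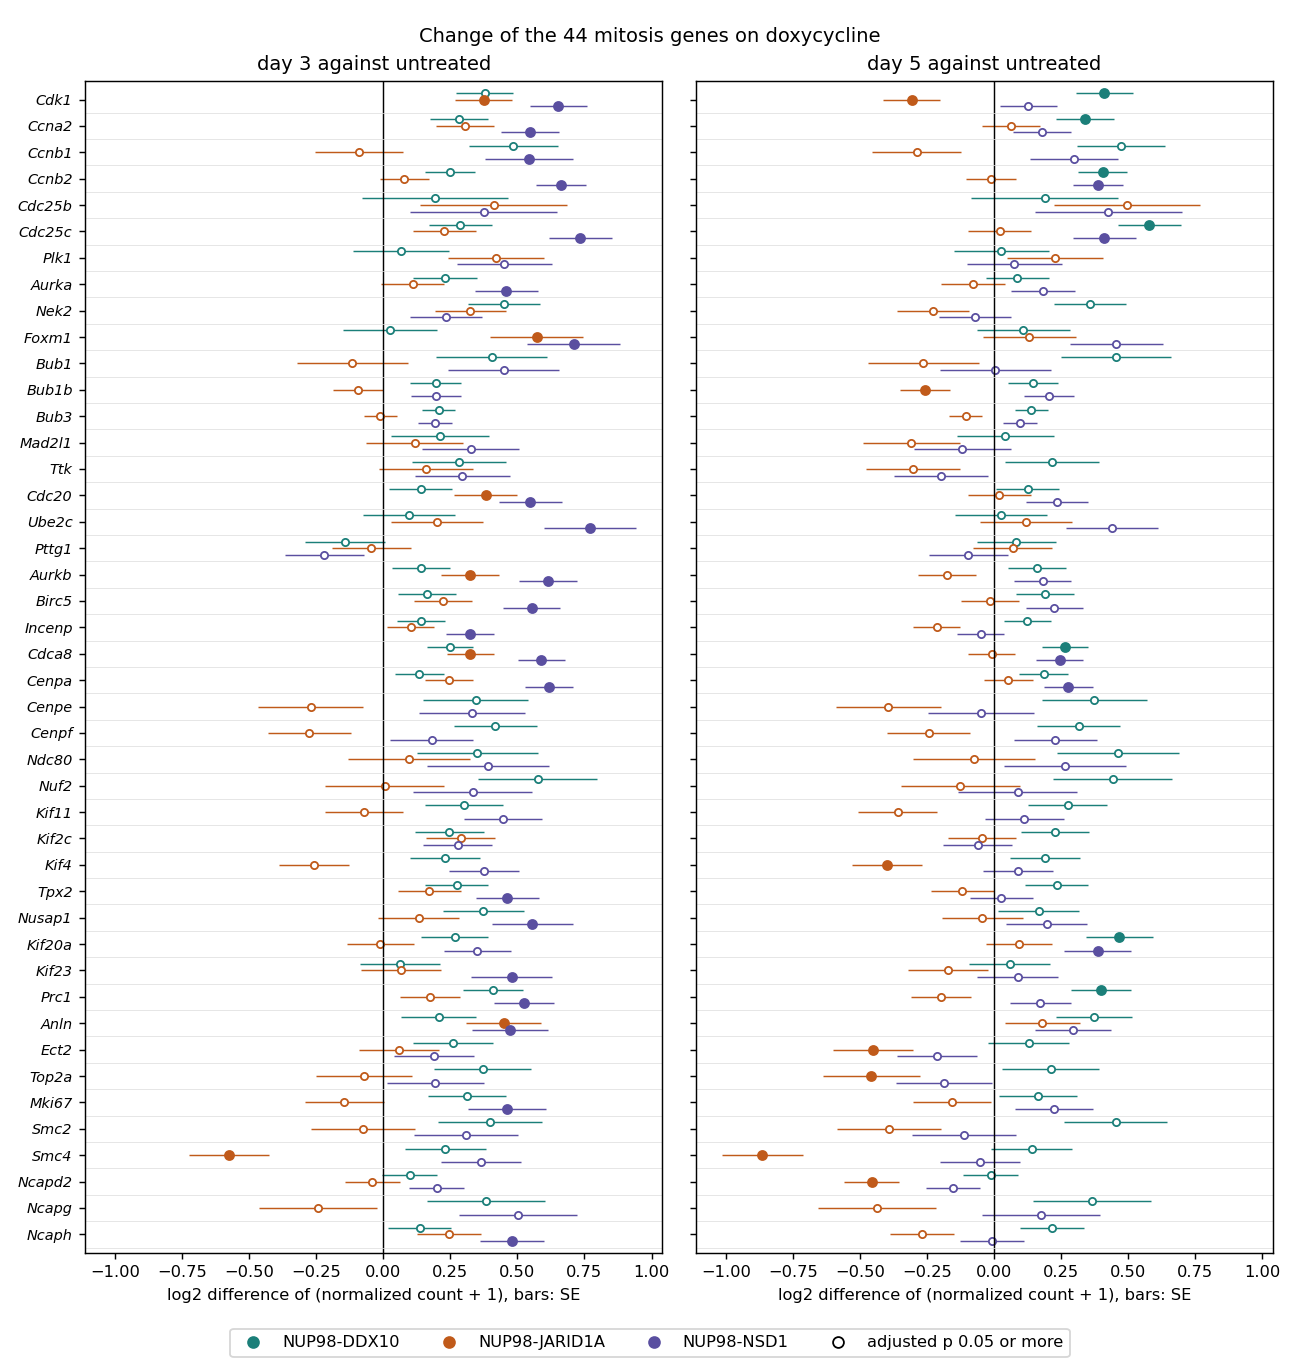
Difference from untreated at day 3 (left) and day 5 (right) of each mitosis gene on the log2 scale, by fusion, with the SE as a bar; filled points passed the limma test. At day 3 nearly all NUP98-NSD1 and NUP98-DDX10 points lie right of 0 (43 of 44 genes in each), and at day 5 33 of 44 NUP98-JARID1A points lie left of it.

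Of the 10 mitotic kinases, cyclins and their regulators, 9 rose in the day 3 mean over the fusions, 7 in NUP98-NSD1 and 2 in NUP98-JARID1A. Cdk1 (Entrez gene 12534, GRCm38 chromosome 10, 69335146 to 69352912), the kinase that drives entry into mitosis, had 1612, 1680.5, 1724 and 1774 normalized counts in the untreated NUP98-NSD1 libraries and 2508, 2646 and 2858 at day 3. In NUP98-DDX10 it had 2347, 2415, 2429.9 and 2563 untreated and 3116, 3178 and 3210.1 at day 3. In NUP98-JARID1A it had 1379, 1412, 1451 and 1762 untreated and 1627, 1949 and 2291 at day 3. The day 3 libraries stood clear of the untreated ones in the first pair of models and overlapped them in the third. Its rise was 0.65 (SE 0.11, adjusted p = 0.000142) in NUP98-NSD1, 0.37 (SE 0.11, adjusted p = 0.0154) in NUP98-JARID1A and 0.47 (SE 0.06, adjusted p = 3.4e-06) in the mean. In NUP98-DDX10 the difference was 0.38 (SE 0.11, adjusted p = 0.0845). The NUP98-JARID1A call on Cdk1 was lost without day 3 replicate 2 or 3 (adjusted p up to 0.144).

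Ccnb2, a B-type cyclin that binds CDK1, rose in NUP98-NSD1, from 2901, 3281, 3423 and 3589 normalized counts to 5007, 5131 and 5491 with no overlap, by 0.66 (SE 0.09, adjusted p = 2.55e-05). In NUP98-DDX10 it had 3573, 3646, 3703 and 3764 untreated and 4066, 4516 and 4524 at day 3, also apart, and in NUP98-JARID1A 2971, 3075, 3261 and 3489 and 3034, 3457 and 3654, overlapping. Those differences were 0.25 (SE 0.09, adjusted p = 0.252) and 0.08 (SE 0.09, adjusted p = 0.65). The other B-type cyclin, Ccnb1, rose by 0.54 in NUP98-NSD1 (adjusted p = 0.0359), from 1001, 1143, 1176 and 1185 to 1441, 1578 and 1932, a call that was lost in 6 of the 7 fits without 1 library (adjusted p up to 0.203). Ccna2, the cyclin that serves both DNA synthesis and entry into mitosis, rose in NUP98-NSD1 from 4323, 4643, 5373 and 5390.3 to 6740.4, 6838 and 7992, by 0.55 (SE 0.11, adjusted p = 0.00145). Its day 3 libraries were above all untreated ones in each of the other models too, at 5344, 5761 and 5826 against 4313, 4496, 4593 and 5194 in NUP98-DDX10 and 4497, 4685 and 5249 against 3431, 3744, 4144 and 4293 in NUP98-JARID1A. In the NUP98-DDX10 model, the cyclins' day 3 libraries were above the untreated ones without passing the test: Ccnb1 had 851, 894, 919 and 1123 and 1141, 1399.9 and 1433, a difference of 0.48 (SE 0.16, adjusted p = 0.193).

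Cdc25c, a phosphatase that removes the inhibitory phosphates from CDK1, rose in NUP98-NSD1 by 0.73 (SE 0.12, adjusted p = 0.000113), from 245, 268, 279.7 and 294 to 398, 438 and 528 normalized counts. Its relative Cdc25b had differences of 0.19, 0.41 and 0.37 at day 3 in NUP98-DDX10, NUP98-JARID1A and NUP98-NSD1 and passed the test in none. It was the 1 gene of the 10 that did not pass in the mean either (adjusted p = 0.161). Foxm1, the transcription factor of many genes in this group, rose in NUP98-NSD1 from 1407, 1585, 1670.5 and 1767 to 2543, 2614 and 2708, by 0.71 (SE 0.17, adjusted p = 0.00897). In NUP98-JARID1A it had 2023, 2743, 3035 and 3446 untreated and 3675, 4142 and 4531 at day 3, a rise of 0.57 (SE 0.17, adjusted p = 0.0246). In NUP98-DDX10 its untreated libraries had 2327, 2639, 2679 and 4122 and its day 3 libraries 2413, 3133 and 3289, with a difference of 0.02. There 1 untreated library exceeded all the others. The NUP98-JARID1A call was lost without day 3 replicate 1 or 3 or the untreated library titled day 3 (adjusted p up to 0.119).

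Plk1, the kinase of centrosome maturation and mitotic exit, passed the test at day 3 in the mean (0.31, SE 0.10, adjusted p = 0.0335) and in no single fusion, and 10 of the 21 fits without 1 library lost it (adjusted p up to 0.0828). It had 1242, 1769, 1774 and 2057 normalized counts in untreated NUP98-JARID1A, 2118, 2230.1 and 2416 at day 3, and 869.9, 891, 982 and 1080.3 and 1214, 1241 and 1466 in NUP98-NSD1. Both pairs stood apart. Aurka, the kinase of spindle poles, rose in NUP98-NSD1 by 0.46 (adjusted p = 0.0136), with 1158, 1234, 1334 and 1363 untreated and 1679.5, 1706 and 1857 at day 3. That call was lost without NUP98-NSD1 day 3 replicate 1 or the untreated library titled day 5 replicate 2 (adjusted p up to 0.0804). Nek2, a centrosome kinase, had 231, 262, 262 and 305 untreated and 357, 360.3 and 363 at day 3 in NUP98-DDX10, 209, 268, 268 and 275 and 304, 314 and 335 in NUP98-JARID1A. Both pairs were apart, and Nek2 rose in the mean by 0.33 (SE 0.08, adjusted p = 0.00279).

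Of the 5 genes of the spindle checkpoint, 1 rose at day 3 in the mean. Bub3, which brings the checkpoint kinases to kinetochores, rose in the mean by 0.13 (SE 0.04, adjusted p = 0.0127). It had 2997, 3059.7, 3125 and 3186 normalized counts in untreated NUP98-NSD1 and 3512, 3540.1 and 3549 at day 3, and in NUP98-DDX10 3175, 3183, 3298 and 3393 and 3698, 3721 and 3866. The groups stood apart in both. That call was lost under equal library totals and after a correction for GC content (adjusted p up to 0.156). Bub1, Bub1b, Mad2l1 and Ttk, the checkpoint kinases and the sensor of unattached kinetochores, had mean differences of 0.25, 0.10, 0.22 and 0.25 and did not pass.

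Around the anaphase promoting complex, 2 of 3 genes rose in the mean. Cdc20, its activator, had 753, 806, 834 and 966 normalized counts in untreated NUP98-NSD1 and 1155, 1198 and 1321 at day 3, and rose by 0.55 (SE 0.12, adjusted p = 0.0029). In NUP98-JARID1A it had 989, 1019.5, 1079 and 1095 and 1303, 1338 and 1446, and rose by 0.38 (SE 0.12, adjusted p = 0.0256), a call lost in 4 of the 7 fits without 1 library (adjusted p up to 0.0993). Its NUP98-DDX10 libraries overlapped, at 1508, 1549, 1594 and 1997 untreated and 1706, 1867 and 1889 at day 3. Ube2c, the conjugating enzyme that serves the complex, had the largest rise of the 44 genes in any fusion and day, 0.77 (SE 0.17, adjusted p = 0.00404) in NUP98-NSD1. Its values went from 3598, 4284, 4325 and 4326 to 6621, 7036 and 7460.1. Pttg1, which encodes securin, the inhibitor of chromatid separation that the complex destroys, was the 1 gene of the 44 with a day 3 difference below 0 in all 3 fusions (-0.14, -0.05 and -0.22 in NUP98-DDX10, NUP98-JARID1A and NUP98-NSD1). None passed the test (adjusted p = 0.292 in the mean). In NUP98-NSD1 its day 3 libraries, 440.0, 464 and 484, lay below the untreated ones, 514, 529, 551 and 564.

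All 4 genes of the chromosomal passenger complex, which corrects attachments and steers cytokinesis, rose in the mean and in NUP98-NSD1, and 2 of 4 in NUP98-JARID1A. Cdca8 (Entrez gene 52276, GRCm38 chromosome 4, 124918465 to 124936917), which encodes the subunit borealin, had the smallest adjusted p of the 44 in the mean: 0.39 (SE 0.05, adjusted p = 3.1e-06). Its untreated and day 3 libraries did not overlap in any model. They had 1693, 1866, 1916 and 2031 and 2715, 2822 and 2917 in NUP98-NSD1, and 1971, 1988, 2004 and 2269 and 2425, 2559.5 and 2741 in NUP98-JARID1A. In NUP98-DDX10 they had 2241, 2263, 2388 and 2404 and 2629, 2735 and 2919.8. The rises were 0.59 (SE 0.09, adjusted p = 5.03e-05) and 0.32 (SE 0.09, adjusted p = 0.0107), and the NUP98-DDX10 difference was 0.25 (SE 0.09, adjusted p = 0.213). The NUP98-JARID1A call was lost without day 3 replicate 3 (adjusted p up to 0.0639).

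Aurkb, the kinase of the complex, rose by 0.61 (SE 0.11, adjusted p = 0.000394) in NUP98-NSD1, from 1789, 1968, 1999 and 2069 to 2891, 2933 and 3139 normalized counts. In NUP98-JARID1A it rose from 1912, 2143, 2252 and 2331 to 2439.8, 2663 and 3011, by 0.32 (SE 0.11, adjusted p = 0.0406), which 4 of the 7 fits without 1 library lost (adjusted p up to 0.231). Birc5, which encodes survivin and anchors the complex at centromeres, rose in NUP98-NSD1 from 907, 1007, 1057 and 1062 to 1454, 1484 and 1492, by 0.55 (SE 0.11, adjusted p = 0.00113). Incenp, the scaffold, had the smallest rise of the 4 there, 0.32 (SE 0.09, adjusted p = 0.0198), and lost it without day 3 replicate 1 or 3 or the untreated library titled day 5 replicate 2 (adjusted p up to 0.0831). All 4 genes had their largest day 3 difference in NUP98-NSD1, but the F-test of the difference between fusions passed for none of them.

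Among 5 centromere and kinetochore genes, 1 rose. Cenpa (Entrez gene 12615, GRCm38 chromosome 5, 30666877 to 30674837), the histone H3 variant that marks centromeres, went from 1821, 2042, 2127 and 2307 to 3029, 3084 and 3416 normalized counts in NUP98-NSD1, a rise of 0.62 (SE 0.09, adjusted p = 4.97e-05). In NUP98-JARID1A it had 1829, 1927, 2072 and 2102 untreated and 2255, 2348 and 2435 at day 3, apart, with a difference of 0.24 (SE 0.09, adjusted p = 0.068). In NUP98-DDX10 it had 2788, 2855, 2866 and 3389 and 3016, 3276 and 3484, overlapping, with 0.13 (SE 0.09, adjusted p = 0.597). The other 4, Cenpe (a kinesin that moves chromosomes to the spindle equator), Cenpf, and the microtubule-binding subunits Ndc80 and Nuf2, did not pass in any fusion. Nuf2 had the largest of the NUP98-DDX10 differences at day 3, 0.58 (SE 0.22, adjusted p = 0.274), with 422, 441, 454 and 518 untreated and 622, 702 and 728 at day 3. Cenpe and Cenpf had differences of -0.27 and -0.28 in NUP98-JARID1A.

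Of 5 spindle motor and microtubule genes, 3 rose in the mean: Tpx2, which nucleates spindle microtubules (0.30, SE 0.07, adjusted p = 0.00223), Nusap1, which bundles them (0.35, SE 0.09, adjusted p = 0.00494), and Kif2c, which depolymerises their ends (0.27, SE 0.07, adjusted p = 0.0106). In NUP98-NSD1, Tpx2 went from 2516, 2795, 3028 and 3089 to 3702, 3737 and 4364 normalized counts and Nusap1 from 2815, 3088, 3374 and 3462 to 4364, 4410.2 and 5266, with no overlap. Both of these calls were lost without NUP98-NSD1 day 3 replicate 1 or the untreated library titled day 5 replicate 2 (adjusted p up to 0.0967 and 0.121). Kif11, the motor that pushes spindle poles apart, had 0.45 there (adjusted p = 0.054). Kif4, a chromosome-bound motor, had 0.37 in NUP98-NSD1 and -0.26 in NUP98-JARID1A, neither past the test.

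Of 5 genes of the central spindle and cytokinesis, 2 rose in the mean and 3 in NUP98-NSD1. Prc1 (Entrez gene 233406, GRCm38 chromosome 7, 80294445 to 80316259), which cross-links the microtubules of the central spindle, rose in NUP98-NSD1 from 1416, 1489, 1592 and 1656 to 2022, 2097 and 2542 normalized counts, by 0.52 (SE 0.11, adjusted p = 0.0029). In NUP98-DDX10 it had 1139, 1188, 1398 and 1444 untreated and 1667, 1702 and 1758 at day 3, apart, with a difference of 0.41 (SE 0.11, adjusted p = 0.0755). Anln, which encodes the ring protein anillin, rose in NUP98-JARID1A from 1943, 2388, 2425 and 2566 to 2818, 3085 and 3639, by 0.45 (SE 0.14, adjusted p = 0.0292), and in NUP98-NSD1 by 0.47 (SE 0.14, adjusted p = 0.033). Those calls were lost in 3 and 6 of the 7 fits without 1 library, and that of the motor Kif23 in NUP98-NSD1 (0.48) in 7 of 7 (adjusted p up to 0.155, 0.161 and 0.163). The motor Kif20a and Ect2, which acts at the cleavage furrow, had 0.20 and 0.17 in the mean and did not pass.

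Of 7 genes of chromosome structure, 1 rose in the mean, Ncaph, a condensin subunit (0.29, SE 0.07, adjusted p = 0.00398), and 1 fell in NUP98-JARID1A, Smc4. Smc4 (Entrez gene 70099, GRCm38 chromosome 3, 69004738 to 69034623), a core ATPase of condensin, had 2792, 3403, 3509 and 3622 normalized counts in untreated NUP98-JARID1A and 1984, 2343 and 2362 at day 3, with every day 3 library below every untreated one. The change was -0.58 (SE 0.15, adjusted p = 0.00843), lost without day 3 replicate 1 (adjusted p up to 0.0641). In NUP98-NSD1 the same gene had 3239.8, 3514, 4009 and 4251 untreated and 4499.6, 4669 and 5281 at day 3, all above, with 0.36 (SE 0.15, adjusted p = 0.133). In NUP98-DDX10 it had 2326, 2516, 2637 and 3295 and 2908, 3231 and 3275, overlapping. Mki67, the proliferation antigen that coats mitotic chromosomes, rose in NUP98-NSD1 by 0.46 (SE 0.15, adjusted p = 0.0441), with 23134, 24583, 24672 and 25679 untreated and 29808, 35577 and 36202 at day 3. That call was lost in 6 of the 7 fits without 1 library (adjusted p up to 0.172). Top2a, the topoisomerase that untangles chromatids, had 0.37, -0.07 and 0.19 in NUP98-DDX10, NUP98-JARID1A and NUP98-NSD1 and did not pass. The condensin genes Smc2, Ncapd2 and Ncapg did not pass in any fusion at day 3.

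**Figure D3:**
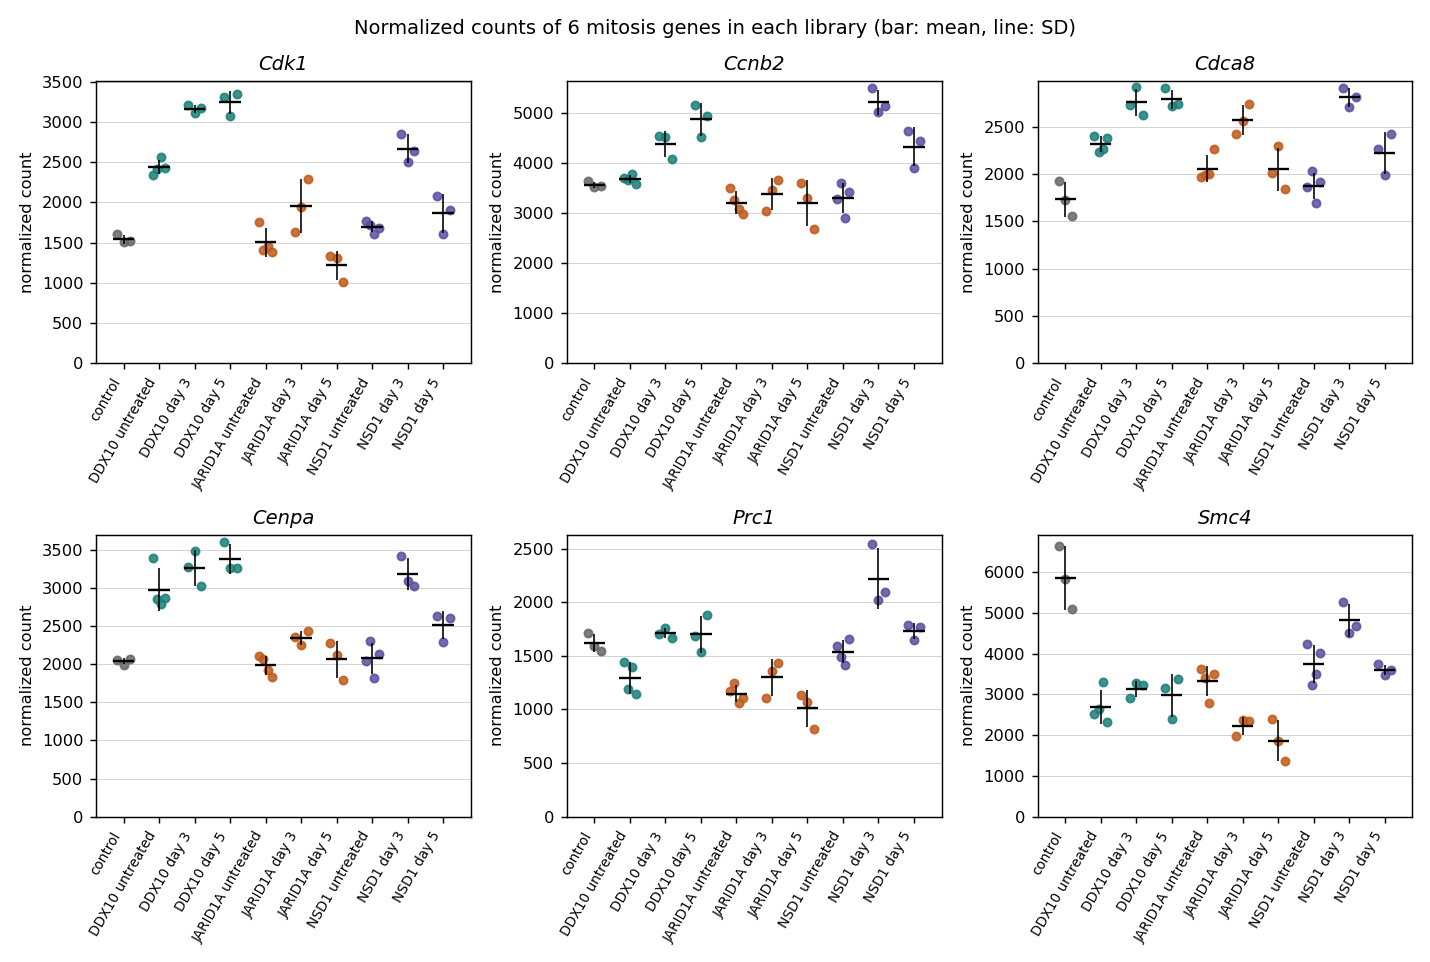
Normalized counts of Cdk1, Ccnb2, Cdca8, Cenpa, Prc1 and Smc4 in all 33 libraries, 1 point per library on an axis from 0, with group mean (bar) and SD (line). Cdca8 has its day 3 libraries above the untreated ones in all 3 fusions, and Smc4 has them below in NUP98-JARID1A.

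The doxycycline days share their untreated libraries, so the values below are not independent of those at day 3. In NUP98-DDX10, 7 of 44 genes were higher than untreated (6.49% of all features) and 0 lower (8.64%), with a median of 0.21. In NUP98-NSD1, 5 were higher (13.5%) and 0 lower (11.9%), with a median of 0.15. In NUP98-JARID1A, 0 were higher (20.1%) and 7 lower (21.2%), with a median of -0.16. The mean of the fusions had 7 higher (22.6%) and 2 lower (23.4%). For the higher genes of NUP98-NSD1, the lower genes of NUP98-JARID1A and both directions in the mean, the members' share lay below that of all features. Where limma called 0, it also gave 0 genes at an unadjusted p under 0.05, and edgeR and DESeq2 called 0. By library, 19 genes in NUP98-DDX10 had all day 5 libraries above all untreated ones (18.7% of all features), 14 in NUP98-NSD1 (21.8%) and 0 in NUP98-JARID1A (19.3%), where 4 had them all below (18.4%).

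The genes higher in NUP98-DDX10 at day 5 were Cdk1, Ccna2, Ccnb2, Cdc25c, Cdca8, Kif20a and Prc1. Cdc25c had 325, 364, 365 and 396 normalized counts untreated and 525, 528 and 571 at day 5, a rise of 0.58 (SE 0.12, adjusted p = 0.00119), and Cdk1 2347, 2415, 2429.9 and 2563 and 3076, 3316 and 3346, a rise of 0.41 (SE 0.11, adjusted p = 0.00864). Kif20a had 966, 1071, 1115 and 1120.0 and 1407, 1449 and 1575, a rise of 0.47 (SE 0.12, adjusted p = 0.0109). All 3 genes stood clear of untreated. The calls on Cdk1, Ccnb2 and Cdc25c held without any 1 library. The count fell to 3 without day 5 replicate 3, and to 4 without the untreated library titled day 5 replicate 1 or replicate 3. In NUP98-NSD1 the 5 were Ccnb2, Cdc25c, Cdca8, Cenpa and Kif20a. Ccnb2 went from 2901, 3281, 3423 and 3589 to 3891, 4425 and 4641, by 0.39 (SE 0.09, adjusted p = 0.00246), and held without any 1 library. The count there fell to 1 without day 5 replicate 1, 2 without the untreated library titled day 5 replicate 2, and 3 without day 5 replicate 3 or the untreated library titled day 3.

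The genes lower in NUP98-JARID1A at day 5 were Cdk1, Bub1b, Kif4, Ect2, Top2a, Smc4 and Ncapd2. Smc4 had 2792, 3403, 3509 and 3622 normalized counts untreated and 1364, 1855 and 2386 at day 5, a difference of -0.86 (SE 0.15, adjusted p = 4.04e-05). Ncapd2, another condensin subunit, had 4341, 5008, 5287 and 5901 and 3458, 3621 and 4113, with -0.46 (SE 0.10, adjusted p = 0.00073). Cdk1 had 1013, 1309 and 1330.1 at day 5, all below the untreated values given above, with -0.31 (SE 0.11, adjusted p = 0.0218). Bub1b had 2775, 2936, 3365 and 3548 and 2297, 2704 and 2928, overlapping, with -0.26 (SE 0.09, adjusted p = 0.0293). Top2a had 4429.5, 5906, 6604 and 6683 and 2942, 4343 and 5987, also overlapping. The 3 day 5 libraries were unlike each other: replicate 3 had the lowest value of the 3 for Cdk1, Smc4 and Top2a, and replicate 1 held 28903870 reads, the most of all libraries. The count of lower genes was 17 without replicate 1, 2 without replicate 3, 4 without the untreated library titled day 5 replicate 1 and 11 without that titled day 5 replicate 2. Smc4 and Ncapd2 kept their calls in all 7 of those fits.

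Of the largest differences at day 5 that did not pass, Cdc25b, Ube2c and Foxm1 had 0.43, 0.44 and 0.46 in NUP98-NSD1, and Anln, Plk1 and Cdc25b 0.18, 0.23 and 0.50 in NUP98-JARID1A. In the other direction, Ect2, Ttk and Top2a had -0.21, -0.20 and -0.19 in NUP98-NSD1, and Ncapd2, the 1 gene below 0 in NUP98-DDX10, had -0.01 there. The next lowest in that model were Ube2c and Plk1, both at 0.03. The size of the day 5 result also depended on how libraries were scaled. With libraries set to equal totals, the median of all features moved by -0.28 in NUP98-JARID1A and -0.14 in NUP98-NSD1, and the genes lower were 27 in NUP98-JARID1A and the genes higher 0 in NUP98-NSD1. The mean then had 0 genes higher and 5 lower. Relative to that shift, the median of the 44 genes (-0.44 in NUP98-JARID1A, 0.01 in NUP98-NSD1) differed little from the value on the authors' scale. At day 3 the medians under the same scaling were 0.26, 0.06 and 0.44 in NUP98-DDX10, NUP98-JARID1A and NUP98-NSD1.

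From day 3 to day 5, the mean of the fusions had 21 of 44 genes lower (13.4% of all features) and 0 higher (14.3%). NUP98-JARID1A had 10 lower (10.4%) and 0 higher (9.54%), with a median of -0.24, and NUP98-NSD1 had 9 lower (4.95%) and 0 higher (5.66%), with a median of -0.33. NUP98-DDX10 had 0 lower (0.497%) and 0 higher (0.434%), with a median of -0.01. limma gave 1 gene higher in NUP98-DDX10 at an unadjusted p under 0.05 and 0 in the other directions with no call, and edgeR and DESeq2 called 0 there. Cdk1 fell from 2508, 2646 and 2858 normalized counts at day 3 to 1601, 1909 and 2083 at day 5 in NUP98-NSD1, a difference of -0.52 (SE 0.11, adjusted p = 0.00344), and in NUP98-JARID1A from 1627, 1949 and 2291 to 1013, 1309 and 1330.1, a difference of -0.68 (SE 0.11, adjusted p = 0.000124). In NUP98-DDX10 it had 3116, 3178 and 3210.1 and then 3076, 3316 and 3346, overlapping. Aurkb fell as well, with -0.43 (SE 0.12, adjusted p = 0.0155) in NUP98-NSD1 and -0.50 (SE 0.12, adjusted p = 0.00297) in NUP98-JARID1A, and so did Ncaph, with -0.49 (SE 0.13, adjusted p = 0.0131) and -0.51 (SE 0.13, adjusted p = 0.00523). All 4 chromosomal passenger genes fell in the mean, of which Birc5 (-0.18, SE 0.07, adjusted p = 0.045) missed the threshold when 1 library was left out in 14 of 18 cases (adjusted p up to 0.111) and under 3 of 11 other settings. The NUP98-NSD1 count was 2 without day 3 replicate 1 and 1 without day 5 replicate 2, and the NUP98-JARID1A count 4 without day 3 replicate 3 and 5 without day 5 replicate 3. The count in the mean was 11 without NUP98-JARID1A day 3 replicate 3 or day 5 replicate 3, 12 without NUP98-NSD1 day 3 replicate 1 or day 5 replicate 2, and 13 without NUP98-DDX10 day 3 replicate 2 or day 5 replicate 2.

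Whether the fusions differed was tested directly with limma's F-test of their 3 differences from untreated. At day 3 it passed for 3 of 44 genes, where 7.08% of all features passed: Smc4 (adjusted p = 0.00889), Ccnb2 (0.013) and Cenpa (0.0371). Ccnb2 and Cenpa had their largest difference in NUP98-NSD1, and Smc4 was lower in NUP98-JARID1A alone. For the other genes called in NUP98-NSD1 the difference between fusions did not pass, and the count was 1 without NUP98-NSD1 day 3 replicate 1. At day 5 it passed for 9 genes, where 26% of all features did: Smc4, Cdk1, Prc1, Bub1b, Ccnb2, Cdc25c, Ccnb1, Kif4 and Nek2. In each of the 9 the NUP98-JARID1A difference was the lowest of the 3. For Cdk1 the 3 differences were 0.41, -0.31 and 0.13 in NUP98-DDX10, NUP98-JARID1A and NUP98-NSD1 (adjusted p = 0.00272), and for Prc1 0.40, -0.20 and 0.17 (0.018). That count was 20 without NUP98-JARID1A day 5 replicate 1 and 2 without its replicate 3. It was 5 without NUP98-DDX10 day 5 replicate 1 or 3, or without the untreated library titled day 5 replicate 3 of NUP98-DDX10 or of NUP98-JARID1A.

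Before treatment, the F-test found 29 of 44 genes to differ between the untreated fusions, close to the 69.8% of all features. Cdk1 and Cdc20 were highest in NUP98-DDX10. Cdc20 had 1508, 1549, 1594 and 1997 normalized counts there, 989, 1019.5, 1079 and 1095 in NUP98-JARID1A and 753, 806, 834 and 966 in NUP98-NSD1, 3 ranges that did not meet. Aurkb had 2758, 3082, 3134 and 3566, 1912, 2143, 2252 and 2331 and 1789, 1968, 1999 and 2069, with NUP98-DDX10 apart and the others overlapping. Ncaph had 2361, 2440.4, 2619 and 2712 in NUP98-DDX10, above 1526, 1616, 1695 and 1783 and 1704, 1714, 1813 and 1890.3 in NUP98-JARID1A and NUP98-NSD1.

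Against the controls, the untreated fusions had members both higher and lower. In NUP98-DDX10, 15 genes were higher (30.6% of all features) and 12 lower (37.9%), with a median of 0.06. In NUP98-JARID1A, 13 were higher (31.4%) and 14 lower (38%), and in NUP98-NSD1 12 were higher (29.7%) and 5 lower (34.9%). The mean of the fusions had 16 higher (31.8%) and 11 lower (38.9%). The shares of higher genes were near those of all features. With equal library totals, which moved the median of all features by 0.32, 0.22 and 0.31 in the 3 models, the genes higher and lower were 22 and 7 in NUP98-DDX10, 16 and 10 in NUP98-JARID1A, 24 and 2 in NUP98-NSD1 and 23 and 7 in the mean. Plk1 had 621, 656 and 733 normalized counts in the controls and 1327, 1467, 1669 and 2302 in untreated NUP98-DDX10, a difference of 1.31 (SE 0.18, adjusted p = 3.17e-07). Foxm1 had 1249, 1402 and 1546 in the controls and differed by 1.04, 0.99 and 0.20 in NUP98-DDX10, NUP98-JARID1A and NUP98-NSD1, the last not past the test. Lower were Cenpe (1795, 1949 and 2121 in the controls, 761, 983, 1024 and 1079 in NUP98-DDX10, -1.03, SE 0.20, adjusted p = 4.37e-05) and Mki67, with -0.77, -1.05 and -0.76. Cdc25b had 1434, 1518 and 5357 in the controls, 1 library far above the others, so that no difference is given for it. The controls also differed in makeup: their summed markers were 25839 to 112421 normalized counts for B cells (13 markers) against 1151 to 2133 in the untreated fusions, and 8959 to 88145 against 247 to 1055 for erythroid cells (15 markers). The 13 B cell and 11 testable erythroid markers were all lower in each untreated fusion, and their part in the values above was not tested.

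The members' differences moved with base composition. The GC content of each gene's longest protein-coding transcript ran from 39.7% (Smc2) to 56.0% (Plk1), and 22 genes lay at or above 46.9%, where the members were split evenly. At day 3 the median difference was 0.33 in the 22 genes of lower GC and 0.19 in those of higher GC in NUP98-DDX10, and -0.03 and 0.24 in NUP98-JARID1A. In NUP98-NSD1 it was 0.38 and 0.47. Across the 44 genes Spearman's correlation of difference and GC was -0.56, 0.57 and 0.31 in the 3 models, a description, since the genes share their libraries. Over all genes the same correlation of the day 3 difference was -0.27, 0.19 and 0.01. Untreated against control, it was 0.55, 0.59 and 0.31 for the members and 0.32, 0.35 and 0.18 over all genes. Among the members, Cenpe, Cenpf, Smc2 and Smc4 lay on the low side and Plk1, Cdc20, Aurkb and Foxm1 on the high side. Others went against the trend. Bub3 (GC 42.3%) had a mean of 2294 in the controls and 3262, 3125 and 3092 in the untreated models. Kif4 (GC 48.1%) had 1121 and then 883, 997 and 1011. With the GC trend of each library removed, an alternative added after seeing the data, day 3 had 2, 9 and 30 genes higher in NUP98-DDX10, NUP98-JARID1A and NUP98-NSD1 and 32 in the mean, with medians of 0.21, 0.16, 0.43 and 0.27. Without the correction these medians were 0.25, 0.10, 0.45 and 0.27. The shares of all features given above are of the uncorrected fit. The share called after the correction is not given here, so the larger counts cannot be read as a gain of the mitosis genes.

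**Figure D4:**
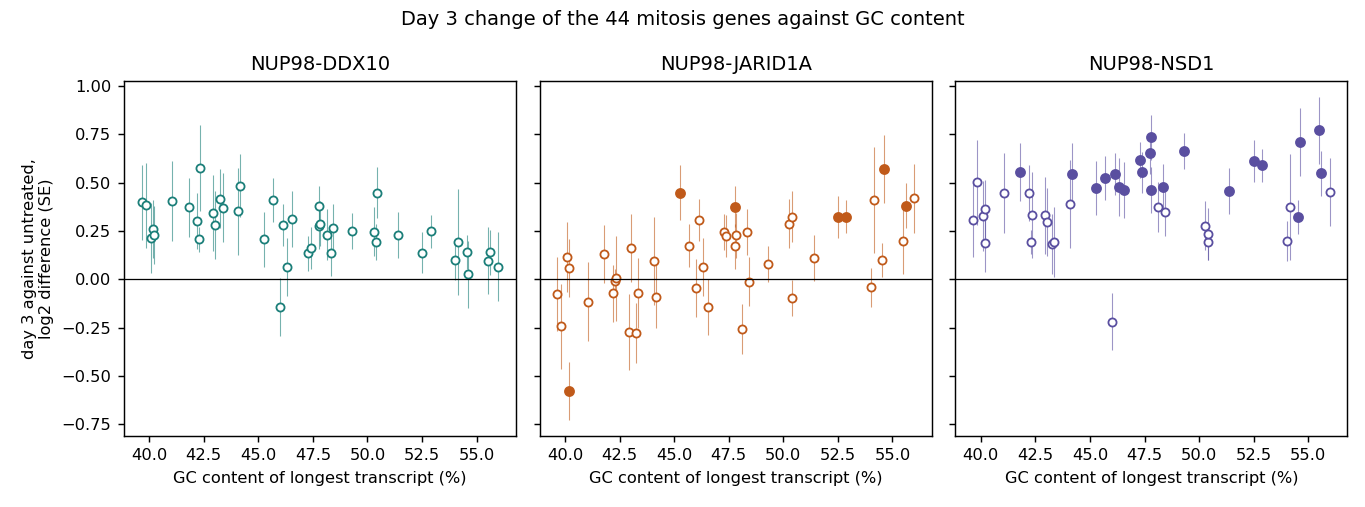
Day 3 difference from untreated (log2, with SE) of the 44 mitosis genes against the GC content of the longest transcript, 1 panel per fusion; filled points passed the test. The points slope down in NUP98-DDX10 (Spearman's correlation -0.56) and up in NUP98-JARID1A (0.57), and lie above 0 at all GC contents in NUP98-NSD1 except Pttg1.

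Other genes of mitosis came from 5 lists of 118 in all. In the mean at day 3, 29 of 118 were higher (8.67% of all features) and 2 lower (9.91%), with a median of 0.16. In NUP98-NSD1 21 were higher (4.55%), with a median of 0.31. The counts by list that follow are of the mean at day 3, with the same 8.67% and 9.91% of all features beside them. In the smaller lists a few genes make up such a share. Of 27 further spindle, motor and cytokinesis genes, 10 were higher, led by Racgap1, the partner of Ect2 at the central spindle (0.50, SE 0.06, adjusted p = 4.11e-07), Tacc3 (0.34) and Fam83d (0.60). Of 24 further regulators of G2 and M phase, 9 were higher, among them Melk (0.39) and Mybl2 (0.37), the MuvB partner that acts before Foxm1. Of 35 kinetochore and centromere genes 5 were higher, with Spc24 at 0.26 and Oip5 at 0.32. Of 18 subunits and enzymes of the anaphase promoting complex, 3 were higher, with Ube2s at 0.38, and 1 lower, Anapc1 (-0.18). Of 14 cohesin and condensin II genes, 2 were higher, Cdca5 (0.28) and Rad21 (0.19), and 1 lower, the cohesin loader Nipbl (-0.23).

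At day 5 these lists had 14 of 118 higher and 23 lower in the mean, both smaller shares than the 22.6% and 23.4% of all features. Racgap1 (0.39) and Fam83d (0.52) were still higher, and Wee1, the kinase that restrains CDK1, was lower, with -0.83 (SE 0.08, adjusted p = 2.11e-09), as were Stmn1 (-0.57) and the kinetochore gene Kntc1 (-0.36). DNA replication genes, which act in the phase of DNA synthesis, earlier in the cell cycle than mitosis, are given for comparison. Of 45, 4 were higher (8.67% of all features) and 1 lower (9.91%) in the mean at day 3, with a median of 0.03. By library, 19 of them in NUP98-NSD1 had all day 3 libraries above all untreated ones (19.7% of all features), and 0 had them below (17.6%). In NUP98-JARID1A 2 had them above (13.4%) and 11 below (13.6%), and in NUP98-DDX10 5 and 5 (9.59% and 11.9%). At day 5, 36 were lower in the mean (23.4%), with a median of -0.42. Mcm7, a subunit of the replicative helicase, had -0.61 (SE 0.05, adjusted p = 1.39e-10) at day 5. At day 5 the 44 mitosis genes had a median of 0.06 in the mean and the replication genes -0.42, side by side and with no test between the lists.

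Markers of other cells moved on doxycycline as well, and their part in the results above was not tested. Summed progenitor markers (6 genes, such as Kit and Cd34) went from 8483 to 10550 normalized counts in untreated NUP98-NSD1 to 5110 to 6299 at day 3 and 2513 to 4446 at day 5. In NUP98-JARID1A they went from 15048 to 20008 to 5236 to 7154 and 1984 to 2346, and in NUP98-DDX10 from 14871 to 17643 to 10110 to 10809 and 5943 to 7693. In the mean, 5 of 6 were lower at day 3 (9.91% of all features) and 6 of 6 at day 5 (23.4%). Summed hematopoietic and myeloid markers (10 genes) were 191083 to 221041 in untreated NUP98-JARID1A and 376889 to 418713 at day 5. In NUP98-NSD1 they were 200564 to 242871 and 302651 to 346967, and in NUP98-DDX10 182825 to 225910 and 216524 to 229703. Lyz2 was the largest part in NUP98-JARID1A, with means of 90028 and 248981. Mpo (40512 and 16040) and Elane (16553 and 8636) were lower there at day 5, and the rest of the list was higher. The list did not move as one in the other models either. In NUP98-NSD1, Lyz2 had means of 108067 untreated and 240517 at day 5. Mpo (27634 and 3509), Elane, Ly6c2 and Csf3r were lower there, and the rest higher. In NUP98-DDX10, Mpo (53617 and 25015), Elane, Ly6c2, Csf1r and Csf3r were lower at day 5, and Lyz2 (59202.5 and 117879) and the rest higher. Summed T and NK cell markers (10 genes) were 669 to 954 in untreated NUP98-JARID1A and 40.8 to 63.8 at day 3. In the mean 4 of 10 were lower, as was 1 of 13 B cell markers, beside 9.91% of all features at day 3. Nearly all of that T and NK sum was 1 gene, Klrb1c, with group means of 832.5 and 46.2. Cd3d, the next highest, had 4.86 and 2.80. Summed B cell markers (13 genes) were 1832 to 2070 in untreated NUP98-NSD1, 1529 to 1758 at day 3 and 1567 to 3269 at day 5. Most of that sum was Cd79b, with group means of 1781 untreated and 1639 at day 5. Rag2 (7.17 and 6.13) was also lower there at day 5. The other B cell markers were higher, such as Cd22 (47.1 and 182.2), Blnk (42.7 and 147.0) and Cd79a (13.7 and 54.2). Summed erythroid markers (15 genes) were 311 to 550.0 in untreated NUP98-NSD1 and 356 to 753 at day 3. There 2 of 11 were higher (4.55% of all features), with a median difference of 1.29 and 8 of 11 above 0. In NUP98-JARID1A they were 687 to 1055 untreated and 353 to 417 at day 3, and in NUP98-DDX10 247 to 556 and 247 to 345. At day 5 NUP98-NSD1 had 280.4 to 695, NUP98-JARID1A 365 to 660.2 and NUP98-DDX10 349 to 424. Most of the erythroid sum in NUP98-JARID1A and NUP98-DDX10 was 1 gene, Tfrc. Its untreated and day 3 means were 756 and 360 in NUP98-JARID1A and 369 and 280 in NUP98-DDX10. Alas2, the next highest, had 18.1 and 20.1 in NUP98-JARID1A and 14.6 and 9.40 in NUP98-DDX10.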

How the data were processed

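RNA of 33 libraries was analysed; the 2 ChIP-seq samples of the series were not analysed here. The authors deposited a signal table of normalized counts per gene, that is read counts divided by 1 size factor per library. STAR, SAMtools, featureCounts and DESeq2, and the builds GRCm38 and mm10, are named per the submitters' processing notes, without versions; whether counting used strand is not given in the sources used here. Within a library every deposited value (100.0%, to within 0.01 read) was a whole multiple of what 1 read is worth, so reads were recovered; on them edgeR 4.0.16 with TMM called 24 mitosis genes higher at day 3 in the mean, and DESeq2 1.42.0 24. Gene names and coordinates came from RefSeq (GRCm38.p6), which matched 24376 genes and not 78.

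The main test was limma 3.58.1 (R 4.3.3) on log2(value + 1), with 10 group means, a trended prior and 27.3 total degrees of freedom, over 12687 features that reached a value of 10 in no fewer than 3 libraries. It was fitted to all libraries so that groups share 1 estimate of the spread. P-values were adjusted over all features by Benjamini-Hochberg, with a threshold of 0.05. Contrasts were each day against untreated, day 5 against day 3 and untreated against control, per fusion and for the mean of the 3 fusions. Scripts were tested on simulated data. GC content came from GENCODE M21 transcripts, and the GC-corrected alternative removes a lowess trend (span 0.3) per library over 12094 genes. Reads in genes per library were 12043487 to 28903870.

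The members and lists were chosen with earlier results of these data known. Per-library values are given for the 12 members with the smallest adjusted p at day 3 in the mean, for the 3 largest differences in each direction per fusion and day (some by their difference alone), for the leading 5 of every F-test and for Foxm1, Cdk1, Ccnb1, Plk1, Top2a and Mki67; of other lists up to 3 genes are named. Other values were chosen after they were seen.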

Additional observations from a re-analysis of the deposited data

Results flagged for a closer look

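In 7 of 132 groups of 4 untreated libraries (44 genes in 3 fusions), 1 library stood apart from the other 3 by more than Dixon's critical value for 4 values, which chance exceeds in about 1 in 20 groups. In untreated NUP98-DDX10, the library titled day 3 was the high one for Ube2c (6185 normalized counts), Cenpa (3389) and Kif2c (1011). In untreated NUP98-JARID1A, Nek2 had a low library (209, titled day 5 replicate 2) and Cdca8 a high one (2269, titled day 5 replicate 3). In untreated NUP98-NSD1, Ube2c had a low library (3598, titled day 5 replicate 2) and Nuf2 a high one (818, titled day 3).

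The difference from untreated differed between fusions, by limma's F-test, for Smc4 (adjusted p = 0.00889), Ccnb2 (adjusted p = 0.0130) and Cenpa (adjusted p = 0.0371) at day 3. At day 5 it differed for Smc4 (adjusted p = 0.00187), Cdk1 (adjusted p = 0.00272), Prc1 (adjusted p = 0.0180), Bub1b (adjusted p = 0.0184) and Ccnb2 (adjusted p = 0.0261). It also differed there for Cdc25c (adjusted p = 0.0327), Ccnb1 (adjusted p = 0.0337), Kif4 (adjusted p = 0.0346) and Nek2 (adjusted p = 0.0493). At day 5 the Smc4 differences were 0.14, -0.86 and -0.05 in NUP98-DDX10, NUP98-JARID1A and NUP98-NSD1, and those of Nek2 0.36, -0.23 and -0.07.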

How the results depend on the processing

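The median over the 44 genes changed sign without 1 library in NUP98-DDX10 from day 3 to day 5 (-0.06 to 0.02) and untreated against control in NUP98-DDX10 (-0.02 to 0.15) and in the mean (-0.06 to 0.11), and at day 5 in the mean with equal totals (-0.07). In untreated NUP98-JARID1A against control it went from -0.07 to 0.14 with equal totals or GC-corrected values and to 0.00 with quantile normalization. Of the single-gene differences and medians recomputed, 8663 were counted as unchanged, 288 lost the call, 205 gained one and 16 moved otherwise. A gene counted as unchanged kept its side of the threshold, and one that passed in neither fit may have changed sign. A median counted as unchanged moved within the spread of the fits without 1 library, also where its sign changed. The day 3 count in the mean of the fusions was 21 to 25 without any 1 library. Whether the replicate numbers pair the libraries is not given in the sources used here. Same-numbered libraries showed no steady correlation of their deviations from the group mean (27 pairs, r from -0.377 to 0.247, 5 over 0.1). Of 27 libraries, 7 correlated best with their own number. With so few libraries per group this cannot show that they were unpaired. With the replicate block the day 3 count was 24 in the mean, 19 in NUP98-NSD1 and 5 higher in NUP98-JARID1A, and no count moved by over 1.5 times. The cause of the moves below was not tested. Shares of all features called under these settings are not given here, so the counts below have no background beside them. DESeq2 was not run for the F-tests.

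At day 3, NUP98-DDX10 had 4 genes higher with DESeq2, 4 without the controls and 2 after the GC correction; NUP98-JARID1A had 2 with equal library totals and 2 against untreated libraries titled day 5 only, and 0 to 6 higher and 0 to 1 lower without 1 library. NUP98-NSD1 had 12 to 19 without 1 library. Without the controls 1 gene was lower in the mean. At day 5, NUP98-DDX10 had 11 higher without the controls and 3 to 7 without 1 library. NUP98-JARID1A had 1 higher without the controls, 0 to 1 higher and 2 to 17 lower without 1 library, and 13, 27 and 14 lower with quantile normalization, equal totals and the GC correction. NUP98-NSD1 had 2, 0 and 3 higher with quantile normalization, equal totals and edgeR, 1 lower with quantile normalization, and 1 to 6 higher without 1 library. The mean had 3 and 0 higher and 4 and 5 lower with quantile normalization and equal totals, 1 lower against libraries titled day 5 only, 5 lower after the GC correction, and 7 to 11 higher and 1 to 4 lower without 1 library.

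From day 3 to day 5, NUP98-JARID1A had 25 and 18 lower with equal totals and the GC correction and 4 to 15 without 1 library. NUP98-NSD1 had 17, 16 and 20 lower with quantile normalization, equal totals and the GC correction and 1 to 10 without 1 library. The mean had 1 higher without the controls and 11 to 22 lower without 1 library. Untreated against control, the GC correction gave 24, 21 and 19 higher in NUP98-DDX10, NUP98-JARID1A and NUP98-NSD1 and 7 lower in NUP98-JARID1A. Equal totals gave 7 lower in NUP98-DDX10, 24 higher and 2 lower in NUP98-NSD1 and 7 lower in the mean, and quantile normalization 19 higher in NUP98-NSD1. Equal totals moved the median of all features there by 0.32, 0.22 and 0.31, and quantile normalization by 0.16, 0.13 and 0.17. The F-test passed for 1, 1, 7 and 5 genes at day 3 with equal totals, libraries titled day 5 only, no controls and the GC correction, and for 1 to 4 without 1 library. At day 5 it passed for 17, 25, 5 and 15 with quantile normalization, equal totals, edgeR and the GC correction, and for 2 to 20 without 1 library.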
